A study of Mus musculus with 6 samples.

Results

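The transforming growth factor beta (TGF-beta) and bone morphogenetic protein (BMP) genes were taken by symbol from the count table of sorted mouse neural crest cells (NCCs). The rule covered the protein-coding Bmp, Gdf, Tgfb and Inhb ligands, the Bmpr, Acvr and Tgfbr receptors, the Smads, and the secreted antagonists Nog, Chrd, Grem1 and Fst, and used no measured value. It was set, however, with earlier results of these data known. It found 51 of the 46983 genes in the table, and 32 of these 51 were among the 13961 genes with enough reads to be tested. NCCs were labelled with GFP by Wnt1-Cre and the Rosa26 mTmG reporter, collected by fluorescence-activated cell sorting from E11.25 embryos, and profiled by poly(A) RNA sequencing. All 6 embryos carried Wnt1 Cre/+ and Rosa26 mTmG/+. The 3 control embryos were flox/+ at BAF155 and flox/+ at BAF170 and so lost 1 allele of each gene in Cre-expressing cells, and the 3 BAF155/170-deficient embryos were flox/flox at both genes. BAF155 and BAF170, encoded by Smarcc1 and Smarcc2, are core subunits of the BAF chromatin remodeling complex, and Wnt1-Cre acts in the dorsal neural tube as well as in the crest that leaves it. The study made this comparison to find expression changes tied to loss of BAF155/170 in NCCs, and markers of what the sorted material held are given below.

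TGF-beta family ligands are secreted dimers that bring together type II and type I serine/threonine kinase receptors. The type II receptor phosphorylates the type I receptor, which phosphorylates a receptor-regulated Smad. Smad2 and Smad3 carry the TGF-beta and activin signal, whereas Smad1, Smad5 and Smad9 carry the BMP signal, and both groups enter the nucleus with the common partner Smad4. Smad6 and Smad7 block the receptors from inside the cell, and noggin, chordin, gremlin and follistatin bind ligands outside it. In the neural crest, BMP signals take part in induction, delamination and the patterning of the pharyngeal arches, and TGF-beta signals take part in smooth muscle differentiation of the arch arteries and outflow tract.

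The libraries held 8191219 to 11661941 assigned reads in the controls and 12633319 to 19808620 in the deficient group, so every deficient library was deeper. Smarcc1 was lower in the deficient libraries (log2 fold change -0.71, SE 0.16, adjusted p = 0.0676), and Smarcc2 had a log2 fold change of -0.11 (adjusted p = 0.251), though gene totals also count exons outside the floxed parts. The 14 listed macrophage markers summed to 12357 to 14333 CPM (read counts scaled to library size) in the controls and 14452 to 15779 CPM in the deficient libraries. The 14 listed mesenchymal crest markers summed to 67.3 to 119 CPM and 34.6 to 52.7 CPM, and none of them was at 0 in all libraries. The 10 listed migratory and glial crest markers summed to 52.9 to 97.7 CPM in the controls and 38.4 to 50.2 CPM in the deficient libraries. Of these, Sox10, a defining gene of this crest, averaged 4.78 CPM in the controls and 1.18 CPM in the deficient group. Foxd3, with too few reads to be tested, averaged 1.73 and 0.497 CPM. Ednrb, the most abundant of the 10, was level at 23.4 and 23.3 CPM. Thus the sorted material, labelled as NCCs, held macrophage transcripts far above crest transcripts in all 6 libraries. The crest marker sums were lower in the deficient group, though not every marker was. Fewer cells of a type and less RNA per cell cannot be told apart in such bulk libraries.

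A gene was called when its adjusted p was at most 0.1, its log2 fold change (deficient over control) was at least 0.58 in size and its mean level was at least 2 CPM, which are the thresholds of the study. Of the 32 tested genes, 6 were called lower in the BAF155/170-deficient libraries (18.8%), against 681 of all 13961 tested genes (4.88%). They were Gdf11, Tgfb2, Bmp1, Bmpr1a, Acvr2b and Smad5. None was called higher, against 0.0573% of all tested genes. At an unadjusted p under 0.05, 12 were lower and 3 higher, and 3813 of all 13961 tested genes passed in either direction. DESeq2 and limma-voom also called none higher. By adjusted p alone, 8 were lower (7.75% of all tested genes) and 3 were higher (4.18% of all tested genes). The 3 deficient libraries all lay below the 3 controls for 11 genes (16.4% of all tested genes) and all above them for 5 (15%). The fold change was negative for 23 genes and positive for 9 (negative for 52.3% of all tested genes). The median log2 fold change was -0.41, with a range from -1.85 to 0.31, and the median over all tested genes was -0.02.

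The plot of the 32 log2 fold changes by role shows that the negative values were spread over ligands, receptors and Smads. The 6 calls rested on particular libraries. Control replicate 2 was the highest control for all 6, and deficient replicate 3 was the lowest deficient library for 5. Of all 681 genes called lower, 597 were likewise highest in control replicate 2. Leaving out control replicate 1 or 2 or deficient replicate 3 left none of the genes called, and none at an adjusted p of 0.1. At an unadjusted p under 0.05, these 3 fits had 10, 8 and 9 lower and 3, 4 and 3 higher. In the same fits 2547, 2361 and 2200 of all tested genes passed that p in either direction. Without deficient replicate 1, 10 were called lower, as were 1030 of all tested genes. The sign of the fold change was kept with each library left out in turn for 29 of the 32 genes. When the libraries were scaled to embryonic markers in place of all genes, the median of all genes moved by 0.92 to 0.90. Of the 23 negative fold changes, 18 then turned positive, and those of Gdf11, Tgfb2, Tgfbr3, Bmp7 and Bmp4 stayed negative. Relative to that median, the TGF-beta and BMP genes lay at -0.37, compared with -0.39 under the main scaling. This scaling applies a single factor to all genes of a library, so distances from the median are largely kept by construction. The same holds for the values of single genes relative to that median given below, which are therefore no check of the main fit.

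**Figure D1:**
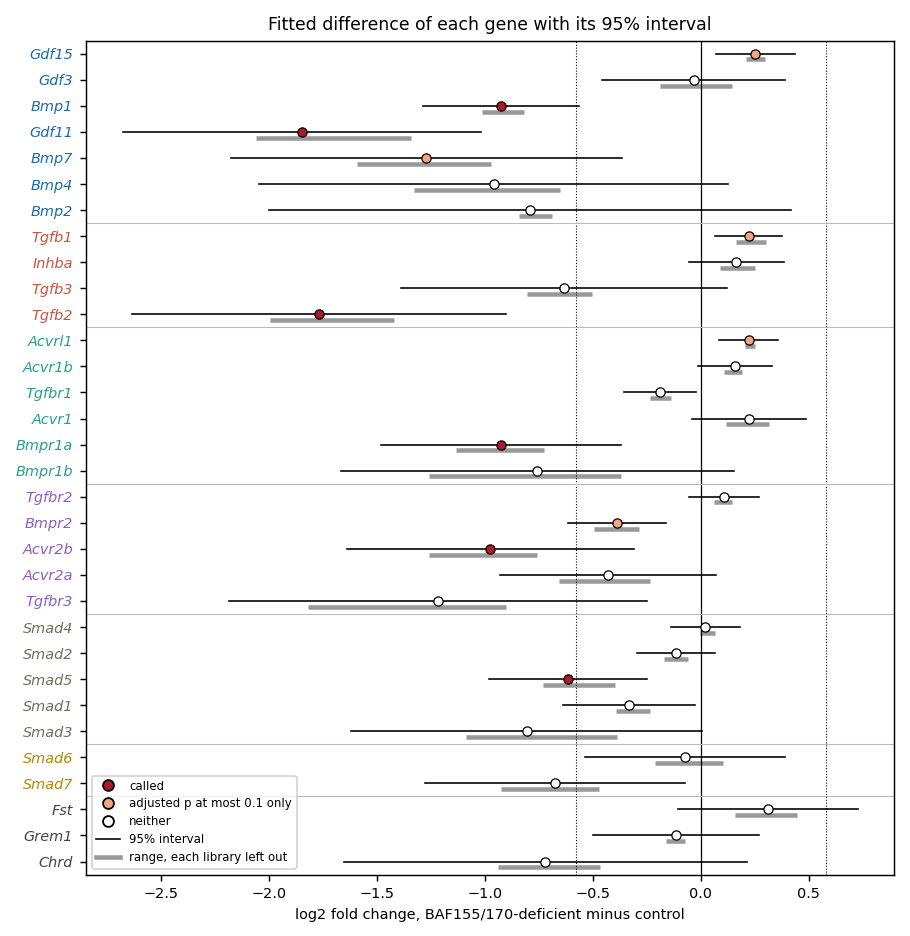
Log2 fold change (deficient over control, x axis) of the 32 tested genes by role (y axis, name colours), with 95% intervals from the edgeR fit as black lines and the range with each library left out as grey bars. Dotted lines mark 0.58 in either direction. The 6 called genes lie between -1.85 and -0.61, and under scaling to embryonic markers only Gdf11 of these stayed called lower.

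Level and direction went together among these genes. The 9 tested genes with a mean below 5 CPM all had negative fold changes (median -0.96), and all tested genes in that range had a median of -0.30. From 5 to 30 CPM, 11 of 13 were negative, with a median of -0.43 against -0.05 for all tested genes. At 30 CPM and above, 3 of 10 were negative and the median was 0.13, against 0.12 for all tested genes. The genes of the last group were Tgfb1, Inhba, Acvrl1, Acvr1b, Tgfbr1, Tgfbr2, Bmpr2, Smad2, Smad4 and Gdf15. Macrophage markers had a median log2 fold change of 0.19 and mesenchymal crest markers a median of -1.19 in the same libraries, as the plot of marker sums by library shows. Their part in the differences of the TGF-beta and BMP genes was not tested.

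**Figure D2:**
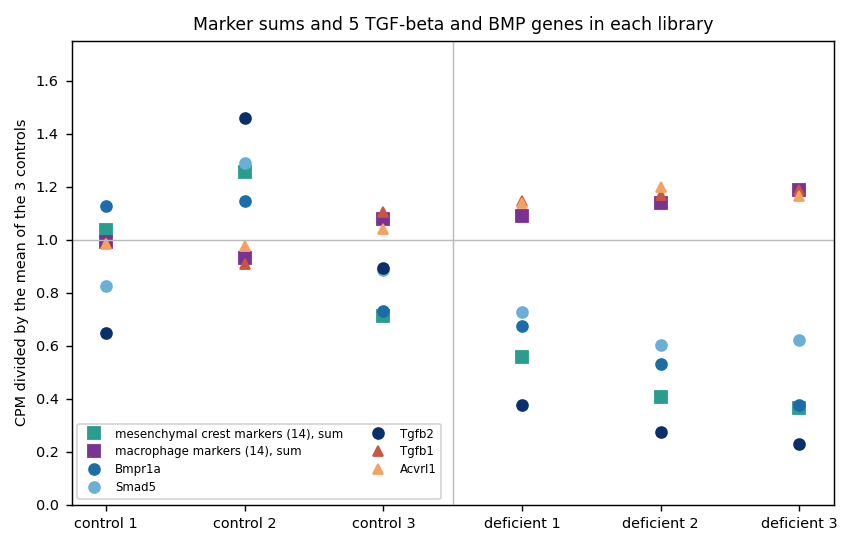
CPM divided by the mean of the 3 controls (y axis) in each of the 6 libraries (x axis), for the summed mesenchymal crest and macrophage markers (squares) and for Bmpr1a, Smad5, Tgfb2, Tgfb1 and Acvrl1. The mesenchymal crest sum, Bmpr1a, Smad5 and Tgfb2 were highest in control replicate 2 and lower in the deficient libraries, while the macrophage sum, Tgfb1 and Acvrl1 were higher there. Under scaling to embryonic markers, Smad5 and Bmpr1a turned to 0.35 and 0.025.

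Promoter sequence is given for 4 genes to set the called genes Tgfb2, Gdf11 and Bmpr1a beside Tgfb1, the most abundant ligand. Each line is the 250 bases before the annotated start in RefSeq (GRCm38.p6), 5′ to 3′ on the strand of the gene. Capitals mark the Smad-binding letters CAGAC or GTCTG, the GC-rich Smad letters GGCGCC, and the GC box GGGCGG or CCGCCC. The Tgfb2 window is chr1:186705990-186706239 on the minus strand, that of Tgfb1 is chr7:25686752-25687001 on the plus strand, that of Gdf11 is chr10:128891719-128891968 on the minus strand, and that of Bmpr1a is chr14:34502547-34502796 on the minus strand.
Tgfb2: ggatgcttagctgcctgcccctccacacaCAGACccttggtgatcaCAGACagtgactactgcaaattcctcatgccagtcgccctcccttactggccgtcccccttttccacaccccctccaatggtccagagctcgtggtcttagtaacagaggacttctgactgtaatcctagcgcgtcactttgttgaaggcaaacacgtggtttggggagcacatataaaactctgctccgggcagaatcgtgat
Tgfb1: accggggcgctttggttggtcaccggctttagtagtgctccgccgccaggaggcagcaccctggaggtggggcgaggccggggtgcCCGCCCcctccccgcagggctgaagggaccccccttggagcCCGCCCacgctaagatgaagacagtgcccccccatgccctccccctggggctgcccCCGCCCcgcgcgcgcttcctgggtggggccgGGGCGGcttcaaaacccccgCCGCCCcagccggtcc
Gdf11: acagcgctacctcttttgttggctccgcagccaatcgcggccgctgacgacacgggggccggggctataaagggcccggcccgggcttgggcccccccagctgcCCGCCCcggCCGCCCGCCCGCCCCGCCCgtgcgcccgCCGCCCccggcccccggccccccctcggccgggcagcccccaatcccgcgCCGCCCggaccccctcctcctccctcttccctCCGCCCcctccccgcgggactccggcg
Bmpr1a: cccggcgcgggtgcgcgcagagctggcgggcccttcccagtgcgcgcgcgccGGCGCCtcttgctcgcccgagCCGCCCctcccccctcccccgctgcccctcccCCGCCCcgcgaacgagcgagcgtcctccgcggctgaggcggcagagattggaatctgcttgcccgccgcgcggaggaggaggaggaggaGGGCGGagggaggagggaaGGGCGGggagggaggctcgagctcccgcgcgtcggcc

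These windows differ in composition. The Tgfb2 window was 53.6% G and C and held 2 CAGAC matches and no GC box. The windows of Tgfb1, Gdf11 and Bmpr1a were 75.2%, 81.2% and 78.8% G and C, with 5, 8 and 4 GC boxes, and that of Bmpr1a held 1 GGCGCC match. The Bmpr1a window, though before the RefSeq start, lies wholly inside the gene as bounded in GENCODE M21 (34410734 to 34503341, minus strand). The windows of Acvr1 and Bmpr2 likewise lie inside their GENCODE genes. RefSeq gave entries for 21 of the 32 tested genes and a single start for 17. Of these 17 windows, 14 held a GC box, which was in 32.7% of the 32851 mouse promoter windows of the same length. CAGAC was in 5 of the 17 (42.2% of all windows) and GGCGCC in 4 (9.59%). The TEAD letters GGAATG or CATTCC, searched because the study examined Hippo signaling, were in none (12.6%). The study searched Tead motifs in far longer promoter stretches of its differentially expressed genes, so these short windows cannot be set against its result. The median G and C content of the 17 windows was 72%, and the median of all windows was 52.4%. Among the 4 called genes with a single start, 3 held a GC box and 2 held CAGAC. Overlapping matches were counted separately, a match is letters only, and no binding was measured in this series.

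Among the 20 BMP and GDF ligands, 7 were tested and 2 were called lower, with 6 of 7 fold changes negative. The shares to set beside this class and those below are 4.88% of all tested genes called lower and 52.3% negative. Gdf11, a ligand of activin type receptors that patterns the trunk axis, was 4.47, 10.7 and 4.68 CPM across controls and 2.27, 1.83 and 1.38 CPM across deficient libraries, each in the order of the replicate numbers. All deficient libraries lay below all controls, and control replicate 2 stood well above the other controls. Its log2 fold change was -1.85 (SE 0.38, adjusted p = 0.0534), and it was -1.34 without control replicate 2. Gdf11 (chromosome 10, 128882295 to 128891718) was the only gene of the 32 still called lower when libraries were scaled to embryonic markers, at -0.82, or -1.73 relative to the median of all genes.

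Bmp1 is not a BMP ligand despite its name but a secreted metalloproteinase that trims procollagens and cleaves chordin. It was 12.2, 13.9 and 11.2 CPM across controls and 7.36, 6.72 and 5.60 CPM across deficient libraries. The groups were well apart, with a log2 fold change of -0.93 (SE 0.17) and the lowest adjusted p of these genes, 0.0455. Bmp1 (chromosome 14, 70474558 to 70520234) was at 0.0092 under scaling to embryonic markers, which is -0.89 relative to the median of all genes.

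Bmp7, a ligand made by dorsal neural tube, epithelium and mesenchyme, was 2.55, 3.34 and 1.31 CPM across controls and 0.940, 1.16 and 0.807 CPM across deficient libraries. It was lower by adjusted p (log2 fold change -1.27, SE 0.41, adjusted p = 0.0964), and its mean level was under the 2 CPM threshold. The adjusted p of Bmp7 was 0.108 with DESeq2 and 0.119 with limma-voom, and of the fits with 1 library left out only that without control replicate 3 kept it under 0.1. Bmp4, which patterns the arches and outflow tract, averaged 1.16 ± 0.395 CPM in the controls and 0.594 ± 0.241 CPM in the deficient group (SD, n = 3 each), with a log2 fold change of -0.96. Bmp2, a ligand of cardiac cushion and arch development, averaged 0.879 ± 0.0944 and 0.521 ± 0.312 CPM (-0.79). The groups overlapped for Bmp4 (adjusted p = 0.233) and for Bmp2 (adjusted p = 0.379), whose total reads per library were 7 to 15 and 5 to 14.

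Gdf15, a stress-induced cytokine that signals through its own receptor, was the most abundant ligand of the class per length of exon, at 16.2 CPM per kb. It was 27.8, 25.6 and 28.9 CPM across controls and 31.0, 32.9 and 34.2 CPM across deficient libraries. All deficient libraries lay above the controls by a small margin, with a log2 fold change of 0.25 (SE 0.084, adjusted p = 0.0986). Other settings of the test moved the adjusted p of Gdf15 to between 0.038 and 0.327. Gdf3, a nodal-like ligand of the early embryo, averaged 8.17 ± 1.76 CPM in the controls and 7.97 ± 0.902 CPM in the deficient group, with a log2 fold change of -0.03 (95% interval -0.46 to 0.39). The 13 ligands left untested had few reads over all 6 libraries. These were Bmp6 with 57, Bmp5 with 56, Bmp10 with 55, Gdf7 with 30, Gdf10 with 30, Gdf9 with 22, Bmp8b with 16, Gdf6 with 13, Bmp3 with 11, Gdf5, Bmp8a and Gdf2 with 2 each, and Bmp15 with 1. Gdf7, a roof plate BMP, averaged 0.675 ± 0.312 CPM in the controls and 0.208 ± 0.0969 CPM in the deficient group, on 2 to 11 reads per library. Its groups barely separated, at 0.319 CPM in control replicate 1 and 0.313 CPM in deficient replicate 1, from 3 and 4 reads.

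Among the TGF-beta and activin ligands, Tgfb1 and Tgfb2 moved apart. Tgfb2, which in the embryo is needed for outflow tract, palate and other crest-linked structures, was 2.02, 4.55 and 2.79 CPM across controls and 1.17, 0.855 and 0.712 CPM across deficient libraries. These levels came from 19, 34 and 34 reads in the controls and 15, 14 and 15 reads in the deficient libraries. The deficient libraries all lay below the controls, and the log2 fold change was -1.77 (SE 0.40, adjusted p = 0.0583). The gene (chromosome 1, 186622792 to 186705989) has a mean of 2.02 CPM, just inside the level threshold. It was also not called with library totals, with no filter or without control replicate 3, nor under scaling to embryonic markers (-0.80, adjusted p = 0.122).

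Tgfb1, the main TGF-beta ligand of blood and immune cells, was the most abundant of the 51 genes per length of exon at 30.4 CPM per kb. It was 140, 129 and 156 CPM across controls and 162, 166 and 168 CPM across deficient libraries. All deficient libraries lay above the controls, with a log2 fold change of 0.22 (SE 0.071, adjusted p = 0.0949). This fold of 1.17 was under the size threshold. The call by adjusted p was lost with library totals as the scaling (adjusted p = 0.210) and with any library but control replicate 3 left out.

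Tgfb3, which acts in palate fusion, averaged 2.01 ± 0.472 CPM in the controls and 1.29 ± 0.172 CPM in the deficient group, and control replicate 1 and deficient replicate 1 were both at 1.49 CPM (log2 fold change -0.63, adjusted p = 0.256). Inhba, the activin A subunit, averaged 32.3 ± 3.73 and 36.3 ± 3.37 CPM (log2 fold change 0.16, adjusted p = 0.316). Inhbb, Inhbc and Inhbe had 20, 2 and 3 reads in all and were not tested. In raw reads, which need no scaling, there were 1.45, 3.53 and 1.79 Tgfb2 reads per 100 Tgfb1 reads in the controls and 0.724, 0.516 and 0.424 in the deficient libraries. This ratio, like the other ratios and shares given here, was chosen after the values were seen and is a description without a test.

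**Figure D3:**
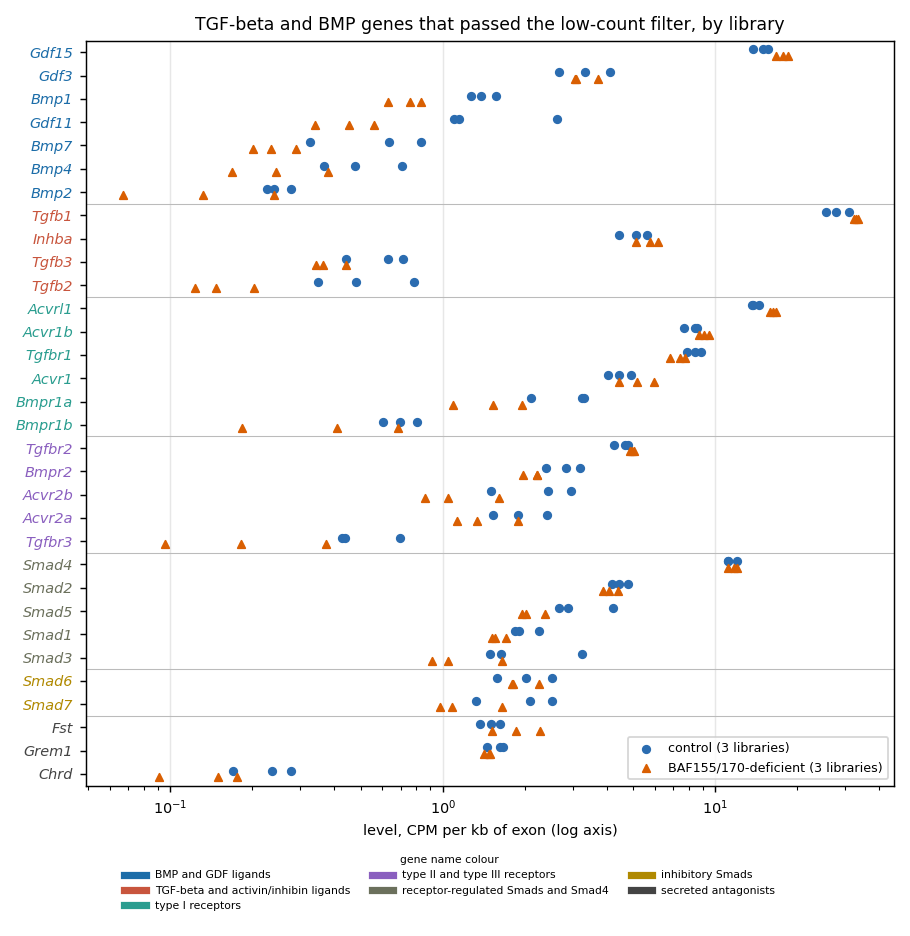
Level in CPM per kb of exon (log x axis) of the 32 tested genes (y axis, name colours by role) in the 3 control (circles) and 3 deficient (triangles) libraries. Tgfb1 lies highest, at 30.4 CPM per kb on average, and the triangles lie left of all circles for 11 genes and right of them for 5. Under scaling to embryonic markers 18 of the 23 negative fold changes turned positive.

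Of the 7 type I receptors, 6 were tested and only the BMP receptor Bmpr1a was called. Bmpr1a (ALK3), a principal type I receptor for BMP2 and BMP4, was 20.6, 21 and 13.4 CPM across controls and 12.4, 9.71 and 6.93 CPM across deficient libraries. The deficient libraries lay below the controls, but the gap between control replicate 3 and deficient replicate 1 was small. The log2 fold change was -0.93 (SE 0.24, adjusted p = 0.0826). Bmpr1a (chromosome 14, 34410734 to 34503341) was also not called without deficient replicate 2. It was at 0.025 under scaling to embryonic markers, or -0.88 relative to the median of all genes. Bmpr1b (ALK6), the related BMP receptor, averaged 4.18 ± 0.588 CPM in the controls and 2.54 ± 1.49 CPM in the deficient group, with overlapping groups (log2 fold change -0.76, adjusted p = 0.258).

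Acvrl1 (ALK1), a type I receptor best known in endothelium, was the most abundant receptor per length of exon at 15.1 CPM per kb. It was 58.7, 58.2 and 62.0 CPM across controls and 67.7, 71.5 and 69.4 CPM across deficient libraries. The groups did not overlap, with a log2 fold change of 0.22 (SE 0.063, adjusted p = 0.0812) that was under the size threshold and was not called by adjusted p with library totals as the scaling (adjusted p = 0.166). With deficient replicate 2 left out, its adjusted p was 0.175. The 7 endothelial markers summed to 174.6 to 196 CPM in the controls and 200.3 to 213 CPM in the deficient libraries. Most of this sum was Kdr, at 173 and 194 CPM on average. Pecam1, the next most abundant, averaged 5.49 and 5.69 CPM. The log2 fold changes of the 5 tested endothelial genes centred on 0.06 (median), with 1 negative and none called. What part these markers had in the Acvrl1 difference was not tested.

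Tgfbr1 (ALK5), the TGF-beta type I receptor, averaged 54.8 ± 3.18 CPM in the controls and 47.9 ± 3.13 CPM in the deficient group (log2 fold change -0.19, adjusted p = 0.138). Acvr1b (ALK4), the activin receptor, averaged 36.3 ± 2.15 and 40.3 ± 1.72 CPM (log2 fold change 0.16, adjusted p = 0.211). Acvr1 (ALK2), a BMP receptor of crest and cushion, averaged 21.5 ± 2.09 and 25.1 ± 3.69 CPM (log2 fold change 0.22, adjusted p = 0.256). None of these passed the test. Acvr1c had 5 reads in all and was not tested.

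The make-up of the type I receptor transcripts can be read within each library. Per kb of exon, Bmpr1a made up 8.39%, 8.37% and 5.59% of them in the controls and 4.93%, 3.80% and 2.73% in the deficient libraries. Acvrl1 made up 36.2 ± 2.09% and 40.9 ± 0.737% (SD, n = 3 each). In raw reads there were 35.1, 36.1 and 21.6 Bmpr1a reads per 100 Acvrl1 reads in the controls and 18.3, 13.6 and 9.99 in the deficient libraries. The share of Bmpr1a was thus lower in each deficient library than in each control. Acvr1, the other BMP receptor with more transcripts, made up 11.5 ± 1.32% and 13.01 ± 1.80%, with overlap.

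All 5 type II and type III receptors were tested, and Acvr2b was called lower. Acvr2b, a type II receptor shared by activins, GDF11 and several BMPs, was 9.57, 11.6 and 5.91 CPM across controls and 6.34, 4.09 and 3.37 CPM across deficient libraries. The groups overlapped, since control replicate 3 lay below deficient replicate 1. The log2 fold change was -0.98 (SE 0.30, adjusted p = 0.0928). Acvr2b (chromosome 9, 119402118 to 119434995) was also not called without deficient replicate 2, and it was at 0.0038 under scaling to embryonic markers (-0.90 relative to the median of all genes).

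Bmpr2, the BMP type II receptor, was 51.1, 57.3 and 42.9 CPM across controls and 39.9, 35.3 and 39.8 CPM across deficient libraries. All deficient libraries lay below the controls, with a log2 fold change of -0.39 (SE 0.10, adjusted p = 0.0771) that was under the size threshold. With offsets corrected for exon length the value was -0.05 (adjusted p = 0.797), and the adjusted p was 0.122 with library totals and 0.156 without deficient replicate 2. Acvr2a, the other activin type II receptor, averaged 11.0 ± 2.53 CPM in the controls and 8.24 ± 2.23 CPM in the deficient group (log2 fold change -0.43, adjusted p = 0.244).

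Tgfbr2, the TGF-beta type II receptor, led the class at 4.76 CPM per kb. It was 38.3, 34.9 and 39.3 CPM across controls and 39.9, 41.1 and 40.5 CPM across deficient libraries. The deficient values lay just above the controls, and the log2 fold change of 0.11 (SE 0.074, adjusted p = 0.377) did not pass. Tgfbr3 (betaglycan), the co-receptor that presents TGF-beta2, averaged 3.40 ± 0.992 CPM in the controls and 1.42 ± 0.931 CPM in the deficient group. Its log2 fold change of -1.22 did not pass (adjusted p = 0.114), although all deficient libraries lay below the controls. Under 7 of 15 other settings listed in the closing section it was called lower.

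Within the type II and type III transcripts, the Tgfbr2 share was larger in the deficient libraries. Tgfbr2 made up 36.5%, 32.8% and 45.1% of the type II and III transcripts per kb in the controls and 45.6%, 51.6% and 53.0% in the deficient libraries. The Bmpr2 share overlapped between the groups, at 23.0 ± 1.29% in the controls and 21.6 ± 1.91% in the deficient group (SD, n = 3 each). There were 133.3, 164 and 109.2 Bmpr2 reads per 100 Tgfbr2 reads in the controls and 100.2, 85.9 and 98.4 in the deficient libraries, without overlap. There were 25.0, 33.3 and 15.03 Acvr2b reads per 100 Tgfbr2 reads in the controls and 15.9, 9.96 and 8.33 in the deficient libraries. The Tgfbr2 share separated the groups narrowly and the Acvr2b ratio did not, with control replicate 3 next to deficient replicate 1 in both.

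Of the 6 receptor-regulated and common Smads, 5 were tested and Smad5 was called. Smad5, a BMP signal transducer, was 19.9, 31.2 and 21.4 CPM across controls and 17.5, 14.5 and 15 CPM across deficient libraries. The deficient libraries lay below the controls, and control replicate 2 was about 10 CPM above the other controls. The log2 fold change was -0.61 (SE 0.16, adjusted p = 0.0781), just past the size threshold, and it was -0.40 without control replicate 2. Smad5 (chromosome 13, 56703010 to 56742377) was also not called without deficient replicate 2, with limma-voom, library totals, no filter or exon-length offsets, and it was at 0.35 under scaling to embryonic markers (-0.55 relative to the median of all genes).

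Smad1, its partner in BMP signaling, averaged 12.5 ± 1.40 CPM in the controls and 9.97 ± 0.603 CPM in the deficient group, with all deficient libraries below the controls (log2 fold change -0.33, adjusted p = 0.153). Smad9, the last BMP Smad, had 12 reads in all and was not tested. Of the TGF-beta and activin Smads, Smad3 averaged 11.8 ± 5.36 and 6.68 ± 2.18 CPM (log2 fold change -0.81, adjusted p = 0.185). Control replicate 2 was at 17.9 CPM for Smad3 and the other controls at 9.04 and 8.29 CPM, and the groups overlapped. Smad3 was called lower under 4 of the 15 other settings. Smad2 averaged 39.1 ± 2.65 and 36.2 ± 2.36 CPM (log2 fold change -0.12, adjusted p = 0.391).

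Smad4 was the most abundant Smad per length of exon at 11.5 CPM per kb. It was 44.8, 41.2 and 41.4 CPM across controls and 44.6, 43.4 and 41.3 CPM across deficient libraries. The groups lay over each other, with a log2 fold change of 0.02 (SE 0.073, 95% interval -0.14 to 0.18, adjusted p = 0.883). There were 44.4, 75.7 and 51.8 Smad5 reads per 100 Smad4 reads in the controls and 39.3, 33.5 and 36.4 in the deficient libraries.

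Neither inhibitory Smad passed the test in the main fit. Smad6, which inhibits mainly BMP signaling, led this pair at 2.0 CPM per kb and was 8.08, 5.08 and 6.48 CPM across controls and 5.80, 7.21 and 5.74 CPM across deficient libraries. The groups overlapped, and the log2 fold change was -0.07 (SE 0.21, adjusted p = 0.853). Smad7, which inhibits both branches, averaged 8.94 ± 2.73 CPM in the controls and 5.58 ± 1.63 CPM in the deficient group (log2 fold change -0.68, adjusted p = 0.143), again with overlap. It was called lower under 4 of the 15 other settings.

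None of the secreted antagonists passed the test. Follistatin (Fst), which binds activins, led at 1.69 CPM per kb and was 6.91, 6.29 and 7.47 CPM across controls and 10.4, 8.49 and 6.98 CPM across deficient libraries. Deficient replicates 1 and 2 lay above all controls and deficient replicate 3 among them, with a log2 fold change of 0.31 (SE 0.19, adjusted p = 0.315). Grem1, an antagonist of BMP2 and BMP4, averaged 6.54 ± 0.459 CPM in the controls and 6.06 ± 0.160 CPM in the deficient group (log2 fold change -0.11, adjusted p = 0.717). Chrd, which binds BMPs until cleaved by the Bmp1 family, averaged 1.43 ± 0.341 and 0.870 ± 0.272 CPM (log2 fold change -0.72, adjusted p = 0.294). Nog had 48 reads in all and was not tested.

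Other genes of the pathway were taken from 3 lists, which were drawn up with earlier results of these data known. Of all tested genes, 4.88% were called lower and 0.0573% higher, and their median log2 fold change was -0.02. Of 21 tested secreted and membrane modulators, 4 were called lower and none higher (median log2 fold change -0.23). The BMP co-receptors Rgmb and Rgma had log2 fold changes of -1.07 (adjusted p = 0.0483) and -1.32 (adjusted p = 0.0934). Fstl1, a secreted BMP-binding glycoprotein, was at -0.73 (adjusted p = 0.0765), and Kcp, a chordin-like modulator of BMP and TGF-beta ligands, at -1.62 (adjusted p = 0.0888). The most abundant of the list were Thbs1, an activator of latent TGF-beta, at 201 and 229 CPM on average, the co-receptor Eng at 108 and 121 CPM, and the integrin subunit Itgav at 71.4 and 73.6 CPM. These 3 did not pass the test.

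Of 18 tested cytoplasmic and nuclear modulators, none was called (median -0.06), with Trim33, a Smad4 regulator, lower by adjusted p alone (-0.50, adjusted p = 0.057). The corepressors Skil, Ski and Tgif1 led this list, with log2 fold changes of 0.07, -0.01 and 0.08 that did not pass. Of 17 tested response genes, 3 were called lower and none higher (median -0.22). These were the collagens Col1a2 (-0.75, adjusted p = 0.066) and Col1a1 (-0.71, adjusted p = 0.0915) and the BMP-responsive arch gene Msx1 (-1.29, adjusted p = 0.0809). Msx1 was 4.68, 8.03 and 3.94 CPM across controls and 3.13, 2.32 and 1.38 CPM across deficient libraries, so the groups did not overlap. Abundant response genes were Junb (log2 fold change 0.20, adjusted p = 0.0901) and Id2 (0.15, adjusted p = 0.17). Junb was higher by adjusted p but under the size threshold, and all deficient libraries lay above the controls for it. The BMP targets Id1 and Id3, named after their values were seen, had log2 fold changes of -0.17 (adjusted p = 0.559) and -0.17 (adjusted p = 0.34). Id4 (-1.51, adjusted p = 0.0794), of the same family, and the arch gene Dlx6 (-2.54, adjusted p = 0.0455) were lower by adjusted p, with means over all libraries under 2 CPM. Among the Id genes, then, Id4 was lower by adjusted p while Id1, Id2 and Id3 did not pass.

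The plot of 9 genes by setting shows that scaling to embryonic markers moved each fold change the most. Between 5 and 8 were called lower under DESeq2, limma-voom, the other scalings to all genes and the other filters. The count fell to 1 at an adjusted p of 0.05 (Bmp1), and to 1 under scaling to embryonic markers (Gdf11). That scaling also called 14 of the 32 higher, but it called 8737 of all 13961 tested genes higher and 53 lower.

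**Figure D4:**
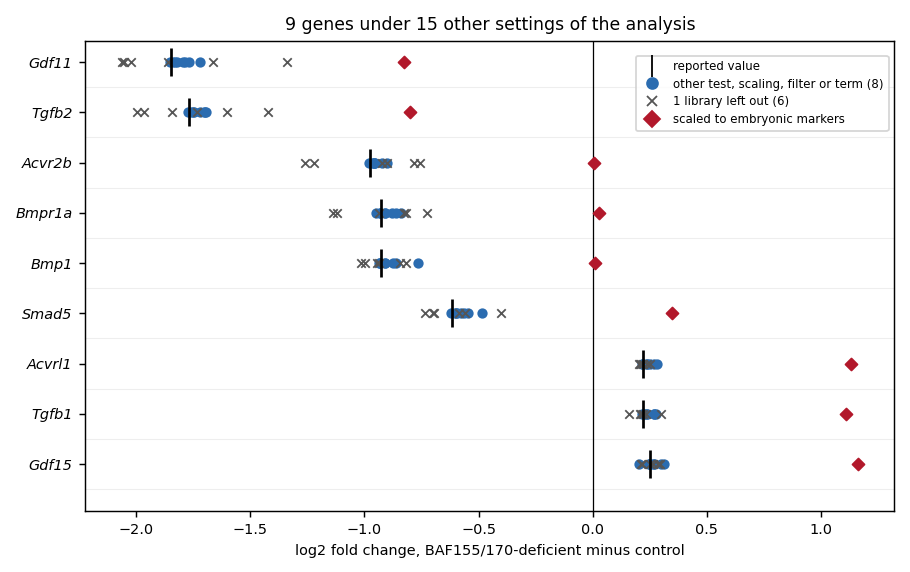
Log2 fold change (x axis) of the 6 called genes and of Acvrl1, Tgfb1 and Gdf15 (y axis) under the main fit (black bar) and 15 other settings, with 1 library left out as crosses and scaling to embryonic markers as diamonds. The diamonds lie to the right of all other marks, at -0.82 for Gdf11, -0.80 for Tgfb2 and 0.35 for Smad5.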

How the data were processed

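Strand-specific poly(A) RNA libraries of GFP+ cells from 3 control and 3 BAF155/170-deficient embryos were sequenced as read pairs. Per the labels, the authors trimmed reads with cutadapt 1.18, checked them with FastQC 0.11.7, mapped them with STAR on GRCm38 and counted them per gene by featureCounts. The deposited counts are whole numbers per Ensembl gene without normalization. The annotation release and the strand setting of counting are not given in the sources used here, so reads of a gene and an overlapping antisense gene might not be separated. Such overlaps covered 2.14% of the exon bases of Tgfb2, 4.57% of Bmpr1a and 2.98% of Acvrl1, and a small RNA on the same strand covered 1.35% of Smad5.

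Symbols and exon lengths came from GENCODE M21, which matched 46488 of 46983 IDs without the version, and the 495 others held at most 0.0706% of the counts of a library. Of 52 symbols that met the rule in GENCODE, 51 were in the table, and Gdf1 was not analysed here. Counts were fitted with the robust quasi-likelihood test of edgeR 4.0.16 in R 4.3.3 on all 6 libraries, after filterByExpr (minimum count 10, minimum total 15) and TMM scaling, with Benjamini-Hochberg adjustment over the 13961 genes tested. Errors of levels are the SD over 3 libraries, and the standard error (SE) of a log2 fold change was its size divided by the root of the F statistic. The common biological coefficient of variation was 12.8%. CPM used TMM library sizes, and levels of different genes were compared per kb of exon. The study used limma with the same thresholds, which was run here as limma-voom 3.58.1, beside DESeq2 1.42.0. An exact permutation test of 1 gene with 3 against 3 libraries cannot go below 0.1 (two-sided). Count differences between replicates exceeded sampling noise, so no library was counted as a copy of another.

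Alternatives were library totals, DESeq2 size factors, no filter, a filter of 1 CPM in 3 libraries, the replicate number as a block, scaling to 30 of 42 listed embryonic markers (mesenchymal and migratory crest, neuronal and neural tube), lowess offsets on exon length (span 0.3), each library left out, adjusted p alone, and an adjusted p of 0.05. Named were all tested genes, with full values for those at an adjusted p of at most 0.1 and for the most abundant of each class per kb, and the untested genes with their total. From the pathway lists, the called genes and the 3 most abundant were named, except that 1 response gene is not reported here. The genes, lists and markers were chosen with earlier results of these data known. Promoters and motifs were searched on both strands in RefSeq windows.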

Additional observations from a re-analysis of the deposited data

How the results depend on the processing

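Of the 32 tested genes, 29 kept their sign with each library left out (21 negative, 8 positive), and the 3 others were near 0: Gdf3 ranged from -0.19 to 0.14, Smad6 from -0.21 to 0.10 and Smad4 from -0.0053 to 0.063. The 6 genes called lower became 0 to 10 with 1 library left out. The count was 0 without control replicate 1 (lowest adjusted p 0.214), without control replicate 2 (0.112) and with deficient replicate 3 left out (0.125), and 10 without deficient replicate 1. It was 4 without deficient replicate 2 and 8 without control replicate 3, and none was called higher in these fits. Of all tested genes, 0, 61, 17, 1030, 219 and 1219 were called lower in these 6 fits, in the same order, and 0, 0, 0, 7, 45 and 26 higher. The median log2 fold change ranged from -0.54 to -0.27.

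Scaling to embryonic markers, themselves lower in the deficient group, gave 1 gene lower, 14 higher and a median of 0.53 (all tested genes 53, 8737 and 0.90). It reversed Gdf3 (0.91), Smad6 (0.83), Grem1 (0.80), Smad2 (0.79), Tgfbr1 (0.75), Smad1 (0.59), Bmpr2 (0.57), Acvr2a (0.49), Smad5 (0.35), Smad7 (0.30), Tgfb3 (0.29), Chrd (0.20), Smad3 (0.20), Bmpr1b (0.12), Bmp2 (0.11), Bmpr1a (0.025), Bmp1 (0.0092) and Acvr2b (0.0038). Offsets corrected for exon length gave a median of -0.30 and 5 genes called, and turned Smad2 to 0.047. Gdf3 was at 0.031 with library totals and 0.016 without a filter. An adjusted p of 0.05 left 1 gene, and adjusted p alone added 3 higher. The other counts of genes called lower were 8 with DESeq2, 7 without a filter, 6 with limma-voom, DESeq2 size factors or the 1 CPM filter, and 5 with library totals. Scaling to embryonic markers moved all genes by a similar amount (0.92 at the median of all tested genes), so its reversals follow from that shift. Where a value changed under another setting, the cause was not tested.

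The sample titles do not say whether equal replicate numbers pair the samples. Same-numbered deviations correlated at 0.0284, -0.0335 and 0.293, and those of different numbers at -0.295 to 0.261. With 3 libraries per group these values cannot settle whether the samples were paired. With the replicate block, 9 genes were called lower and none higher, and 1143 of all tested genes were lower. Tgfbr3, which did not pass, was called with DESeq2, limma-voom, library totals, no filter, the replicate block and without control replicate 3 or deficient replicate 2. Smad7 was called with no filter (adjusted p 0.0451), the replicate block (0.0423) and without control replicate 3 or deficient replicate 1, and Smad3 with DESeq2, no filter and without these same libraries. The 19 untested genes had too few reads to pass the filter, and none had more than 57 in all. Low expression and limited depth cannot be told apart for them.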
